A study of Homo sapiens with 4 samples.

Results

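The 9 prostate lineage transcription factors FOXA1, FOXA2, GATA2, GATA3, GRHL1, GRHL2, SOX4, SOX9 and ONECUT2 were chosen by name, out of 22985 gene symbols with a transcript in the data. Earlier results of these data were known when they were chosen. Total RNA was sequenced, after removal of ribosomal RNA, from C4-2 cells in 2 libraries and from LNCaP cells in 2 libraries. LNCaP is an androgen-dependent human line from a lymph node metastasis of prostate cancer, labelled here as primary cancer, and C4-2 is its castration-resistant descendant, labelled CRPC. Both lines were kept in RPMI medium whose serum had been stripped of steroids, which removes androgens from it. The title of the series names enhancer RNAs of lethal prostate cancer, and the design compares the 2 lines. Each line is a single line in 2 libraries, and nothing in the labels tells whether these came from separate cultures.

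FOXA1 and FOXA2 are forkhead pioneer factors, which bind nucleosomal DNA and open it for other factors; FOXA1 opens enhancers of luminal prostate cells. GATA2 and GATA3 are zinc finger factors, of which GATA2 acts with FOXA1 at enhancers of prostate cancer cells, and GATA3 marks luminal cells of the mouse prostate and of the human breast. GRHL1 and GRHL2 are grainyhead factors that hold epithelial identity, SOX4 and SOX9 are HMG-box factors of progenitor cells and of prostate cancer growth, and ONECUT2 and FOXA2 are known from neuroendocrine prostate cancer.

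The deposited data of each sample are stored under the name of the other line, against the sample titles and cell line labels. Groups follow the titles, the libraries are called C4-2-labelled or LNCaP-labelled, and every direction given here would turn round if the stored names were right. The depth, as sense tags over named genes, was 163126630 and 119080520 in C4-2-labelled libraries and 58925680 and 70459588 in LNCaP-labelled ones. Relative to all tags of a library this was 67.67% and 69.43% in C4-2-labelled libraries and 31.03% and 35.65% in LNCaP-labelled ones, so that the lines also differed in the share of exonic tags, and this share cannot be told apart from the line. All 10 luminal prostate markers were detected in both lines, with summed levels of 3427 and 3383 CPM (sense tags per 1000000 in the library, with TMM scaling) in C4-2-labelled libraries and 2882 and 2902 CPM in LNCaP-labelled ones. None of the 4 basal markers had enough tags for the test, with sums of 0.124 and 0.203 CPM in C4-2-labelled libraries against 0 and 0.0706 CPM in LNCaP-labelled ones. Fibroblast, immune and endothelial markers summed to between 1.40 and 5.78 CPM in C4-2-labelled libraries and between 2.06 and 9.76 CPM in LNCaP-labelled ones, with COL1A2 and CD3E at 0 in all 4 libraries. Among the luminal markers KLK3, the gene of prostate-specific antigen, had 6.14 and 6.23 CPM in C4-2-labelled libraries against 533 and 557 CPM in LNCaP-labelled ones.

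The start regions of members that differed and have a window are shown, because FOXA1, GATA2 and SOX4 were higher in C4-2-labelled libraries and GRHL1 was lower. Each window runs 5′ to 3′ on the strand of the gene, from 250 bases before to 50 bases after a start, and comes from RefSeq on GRCh38.p14; windows matched 6 of the 9 members. Capitals mark matches, read on both strands, to the forkhead letters TGTTTNC, to the short zinc finger factor motif GATAA, to the HMG-box letters ACAAAG of SOX proteins, and to the promoter element CCAAT.
FOXA1, chr14:37595200-37595499, minus strand: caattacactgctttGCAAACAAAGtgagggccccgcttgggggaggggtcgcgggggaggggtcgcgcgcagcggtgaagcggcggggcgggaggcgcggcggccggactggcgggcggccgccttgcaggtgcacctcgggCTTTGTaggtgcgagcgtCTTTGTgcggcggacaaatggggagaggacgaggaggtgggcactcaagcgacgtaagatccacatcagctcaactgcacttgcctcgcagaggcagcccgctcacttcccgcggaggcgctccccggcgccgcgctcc
GATA2, upstream start, chr3:128493152-128493451, minus strand: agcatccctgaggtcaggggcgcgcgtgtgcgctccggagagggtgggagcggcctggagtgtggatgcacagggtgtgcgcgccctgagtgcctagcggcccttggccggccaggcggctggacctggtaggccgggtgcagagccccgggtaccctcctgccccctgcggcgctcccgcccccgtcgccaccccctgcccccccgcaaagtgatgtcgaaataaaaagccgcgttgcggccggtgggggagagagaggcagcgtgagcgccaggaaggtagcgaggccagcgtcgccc
GATA2, downstream start, chr3:128488481-128488780, minus strand: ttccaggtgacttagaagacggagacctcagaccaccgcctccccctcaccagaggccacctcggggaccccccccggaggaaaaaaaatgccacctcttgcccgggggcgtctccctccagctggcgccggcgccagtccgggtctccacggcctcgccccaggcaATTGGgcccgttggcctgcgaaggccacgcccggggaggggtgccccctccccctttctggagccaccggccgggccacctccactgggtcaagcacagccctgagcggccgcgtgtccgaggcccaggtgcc
SOX4, chr6:21593501-21593800, plus strand: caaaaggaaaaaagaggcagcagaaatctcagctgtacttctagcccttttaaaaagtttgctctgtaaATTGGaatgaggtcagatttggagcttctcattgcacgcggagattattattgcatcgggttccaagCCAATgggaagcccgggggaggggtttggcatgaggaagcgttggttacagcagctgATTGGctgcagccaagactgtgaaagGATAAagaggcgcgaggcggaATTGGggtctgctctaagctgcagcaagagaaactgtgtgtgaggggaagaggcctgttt
GRHL1, chr2:9951443-9951742, plus strand: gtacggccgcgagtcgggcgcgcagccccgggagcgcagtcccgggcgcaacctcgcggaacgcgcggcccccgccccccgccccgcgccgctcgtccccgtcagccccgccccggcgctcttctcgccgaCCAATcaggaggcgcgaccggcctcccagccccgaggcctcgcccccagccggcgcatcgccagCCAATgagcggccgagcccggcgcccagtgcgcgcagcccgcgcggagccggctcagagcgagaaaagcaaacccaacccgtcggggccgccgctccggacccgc

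The FOXA1 window held 1 forkhead match and 3 SOX matches, with the forkhead match and a SOX match overlapping. Over all 35116 windows of the table, 18.0% held the forkhead letters, 16.1% the SOX letters, 22.7% the GATA letters and 34.6% a CCAAT box. SOX4 had 1 GATA match and 4 CCAAT boxes, GRHL1 2 CCAAT boxes, and the downstream GATA2 start 1. The grainyhead letters AACNNGTT and the onecut letters ATNGAT were present in 3.52% and 17.0% of all windows. They were in none of the 12 windows of the 6 members with a window, which include several of GATA3 and that of ONECUT2, not shown. FOXA2, GRHL2 and SOX9 had no window. At these shares and with so few windows, an absence does not set the members apart. GC content was 69.3% for FOXA1, 72.3% and 71.3% for GATA2, 79.7% for GRHL1 and 49.3% for SOX4, against a median of 58.7%. These matches describe letters in a short window and are not binding sites.

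Among the 9 factors, the SOX9 mRNA differed most between the lines and was near 0 in C4-2-labelled libraries, and GRHL1 was lower there by less. FOXA1, GATA2, GRHL2 and SOX4, the most abundant members, were higher by small amounts, ONECUT2 did not pass the test, and FOXA2 and GATA3 were close to 0 in both lines. Of the 7 members with enough tags, 4 were higher and 2 lower (edgeR quasi-likelihood test, adjusted p under 0.05 over 15975 genes). In the background 80.0% of tested genes were called, 40.2% as higher and 39.7% as lower, so a call alone does not set these factors apart. The ranges of the lines were separate for 6 of the 7 members, as for 89.9% of tested genes. Their median log2 fold change was 0.17, beside -0.011 for all genes, and its median size without sign was 0.37, beside 0.64 for all genes. In such bulk samples, fewer cells with a factor and less RNA per cell cannot be told apart.

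**Figure D1:**
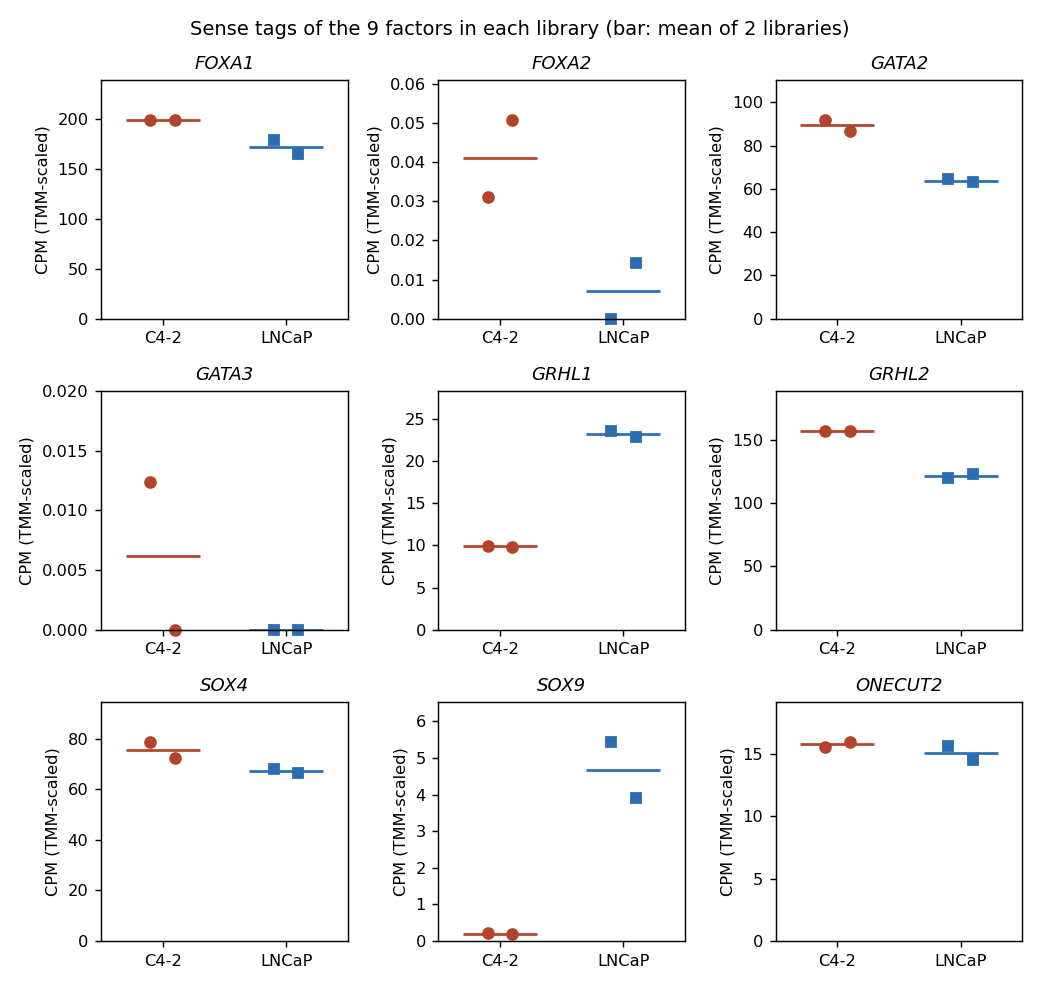
Sense tags of the 9 factors in TMM-scaled CPM (y axis, linear, from 0, a scale of its own in each panel) for the 2 libraries labelled C4-2 and the 2 labelled LNCaP; each point is a library and each bar the mean of 2. SOX9 lies at 0.205 and 0.195 CPM in C4-2-labelled libraries against 5.44 and 3.91 CPM in LNCaP-labelled ones, and the panels of FOXA2 and GATA3 stay below 0.06 CPM.

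The forkhead pioneer FOXA1 (hg19 chromosome 14, 38058757 to 38064325, minus strand, transcript NM_004496) had 199 and 199 CPM in C4-2-labelled libraries and 179 and 165 CPM in LNCaP-labelled ones. Both C4-2-labelled libraries thus lay above both LNCaP-labelled ones, by a margin not much wider than the gap between the LNCaP-labelled pair. Its log2 fold change was 0.21 ± 0.050 (SE, n = 2 libraries per line; edgeR adjusted p = 0.00453), or 1.16-fold higher, and the call ended with a stricter filter on low counts (0.11, adjusted p = 0.0777). The authors' deposited RPKM values, which divide by the whole library total, were 39.2 and 40.6 in C4-2-labelled libraries against 16.7 and 17.5 in LNCaP-labelled ones. Scaling the test to those totals raised the log2 fold change of the median gene to 1.01 and that of FOXA1 to 1.22, which left FOXA1 above the median gene on either scale. Its paralog FOXA2 (chromosome 20, 22561642 to 22566101, minus strand), a factor of liver, lung and neuroendocrine tumours, had 5 and 6 tags in C4-2-labelled libraries and 0 and 1 tag in LNCaP-labelled ones. Relative to the scaled library sizes this is a ratio of 5.17 with a 95% counting interval of 0.751 to 222, so no difference was detectable at this depth. Without a filter on low counts FOXA2 had an adjusted p of 0.287 (edgeR). Both FOXA2 transcripts held the same tags.

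GATA2 (chromosome 3, 128198265 to 128207373, minus strand, NM_001145661) had 92.1 and 86.7 CPM in C4-2-labelled libraries and 64.6 and 63.1 CPM in LNCaP-labelled ones. The gap between the lines was several times that within either. It was 1.40-fold higher, a log2 fold change of 0.49 ± 0.047 (SE, n = 2 per line; edgeR adjusted p = 2.34e-05). The 3 deposited GATA2 transcripts share their end and differ in where they start. NM_032638, which begins farthest upstream at 128212030, held 14327 and 9941 tags in C4-2-labelled libraries and 3744 and 4373 in LNCaP-labelled ones. NM_001145661 held 14805 and 10223 tags in C4-2-labelled libraries and 3882 and 4465 in LNCaP-labelled ones. The upstream form thus had 96.8% and 97.2% of the tags of the other in C4-2-labelled libraries, and 96.4% and 97.9% in LNCaP-labelled ones, ranges that overlap. Since transcripts count the same tags in shared exons, these values do not give the share of each start. GATA3 (chromosome 10, 8096667 to 8117164, plus strand) had 2 and 0 tags in C4-2-labelled libraries and 0 and 0 in LNCaP-labelled ones. A count of 0 over both libraries allows up to 0.0229 CPM in LNCaP-labelled ones, so no fold is given.

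GRHL2 (chromosome 8, 102504668 to 102681952, plus strand, NM_024915), an activator of epithelial junction genes, had 157 and 157 CPM in C4-2-labelled libraries and 120 and 123 CPM in LNCaP-labelled ones. It was 1.30-fold higher (log2 fold change 0.37 ± 0.041, SE, n = 2 per line; edgeR adjusted p = 5.31e-05). GRHL1 (chromosome 2, 10091792 to 10142412, plus strand, NM_198182), its paralog, which acts on desmosomes in mouse epidermis, had 9.98 and 9.82 CPM in C4-2-labelled libraries and 23.6 and 22.8 CPM in LNCaP-labelled ones. The lines were far apart and the libraries of a line close together. It was 2.35-fold lower, at -1.23 ± 0.062 (SE; edgeR adjusted p = 5.70e-07). With library totals GRHL1 stood at -0.22 and was not called (edgeR adjusted p = 0.0890). Its deposited RPKM values were 1.85 and 1.88 in C4-2-labelled libraries and 2.08 and 2.27 in LNCaP-labelled ones. The ratio of GRHL2 to GRHL1 per length does not depend on the scaling, and was 10.9 and 11.0 in C4-2-labelled libraries against 3.50 and 3.71 in LNCaP-labelled ones. This difference in ratio was not tested on its own.

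SOX9 (chromosome 17, 70117161 to 70122560, plus strand, NM_000346), a factor of prostate budding in the mouse, had 33 and 23 tags in C4-2-labelled libraries and 327 and 277 tags in LNCaP-labelled ones. In CPM these were 0.205 and 0.195 in C4-2-labelled libraries and 5.44 and 3.91 in LNCaP-labelled ones. The lines did not come near each other, although LNCaP-labelled libraries differed from each other by a larger ratio than for any other tested member. SOX9 was 23.1-fold lower (log2 fold change -4.53 ± 0.23, SE, n = 2 per line; edgeR adjusted p = 6.47e-07), and it stood at -3.52 with library totals. Of all tested genes, 298 (1.87%) had a lower fold change. SOX4 (chromosome 6, 21593972 to 21598849, plus strand, NM_003107), a factor downstream of TGF-beta signalling, had 78.7 and 72.2 CPM in C4-2-labelled libraries and 67.9 and 66.3 CPM in LNCaP-labelled ones. Its groups did not overlap, but the gap was smaller than that between C4-2-labelled libraries. A log2 fold change of 0.17 ± 0.052 (SE; edgeR adjusted p = 0.0160) was called, yet not without C4-2 replicate 1 (0.12, adjusted p = 0.204), with the stricter filter (0.066, 0.251) or without non-coding transcripts (0.11, 0.0891).

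ONECUT2 (chromosome 18, 55102917 to 55158530, plus strand, NM_004852), a homeodomain factor, had 15.6 and 16.0 CPM in C4-2-labelled libraries and 15.7 and 14.5 CPM in LNCaP-labelled ones. The lines overlapped, and its log2 fold change of 0.070 ± 0.069 (SE, n = 2 per line) did not pass (edgeR adjusted p = 0.372). On library totals it stood at 1.08, near the median gene at 1.01, and was called.

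**Figure D2:**
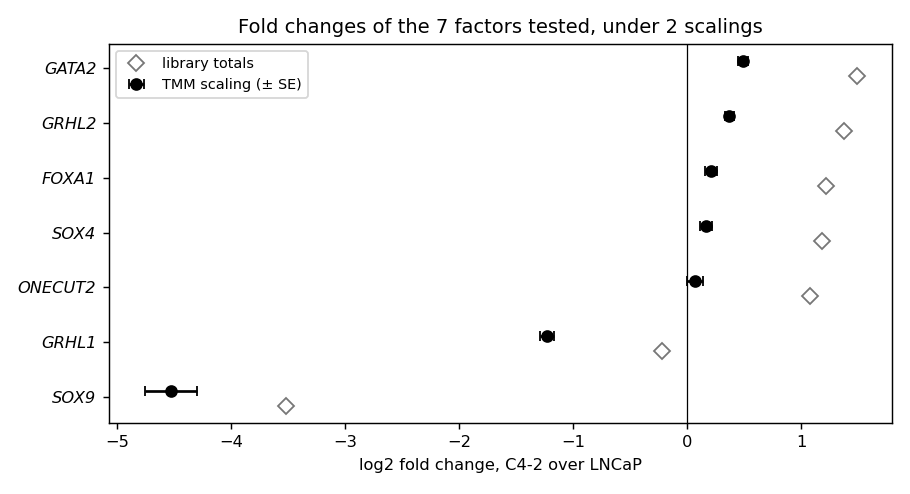
Log2 fold change of C4-2-labelled libraries over LNCaP-labelled ones (x axis) for the 7 factors tested (y axis), as black points with SE under TMM scaling and as open diamonds under library totals. Every diamond lies about 1 unit to the right of its point, which leaves SOX9 at -3.52 and moves GRHL1 to -0.22.

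Levels per length kept nearly the same order in both lines. In CPM per kb of exon, FOXA1 led with 58.9 ± 0.10 in C4-2-labelled libraries and 50.8 ± 2.9 in LNCaP-labelled ones (SD, n = 2 each), above 90.6% of tested genes in C4-2-labelled libraries and 89.9% in LNCaP-labelled ones. GRHL2 followed at 30.1 ± 0.0082 in C4-2-labelled libraries and 23.2 ± 0.41 in LNCaP-labelled ones. GATA2 had 25.7 ± 1.1 in C4-2-labelled libraries and 18.4 ± 0.31 in LNCaP-labelled ones, and SOX4 had 15.5 ± 0.94 in C4-2-labelled libraries and 13.8 ± 0.24 in LNCaP-labelled ones. All 4 lay well above the other members in either line. GRHL1 came next at 2.75 ± 0.031 in C4-2-labelled libraries and 6.45 ± 0.16 in LNCaP-labelled ones. ONECUT2 and SOX9 changed places: ONECUT2 had 0.982 ± 0.017 and SOX9 0.0509 ± 0.0019 in C4-2-labelled libraries, whereas ONECUT2 had 0.937 ± 0.055 and SOX9 1.19 ± 0.27 in LNCaP-labelled ones. Neighbours in either order did not overlap between libraries, though SOX9 and ONECUT2 lay close in LNCaP-labelled ones, where the lower SOX9 value was 0.995 and the higher ONECUT2 value 0.976.

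**Figure D3:**
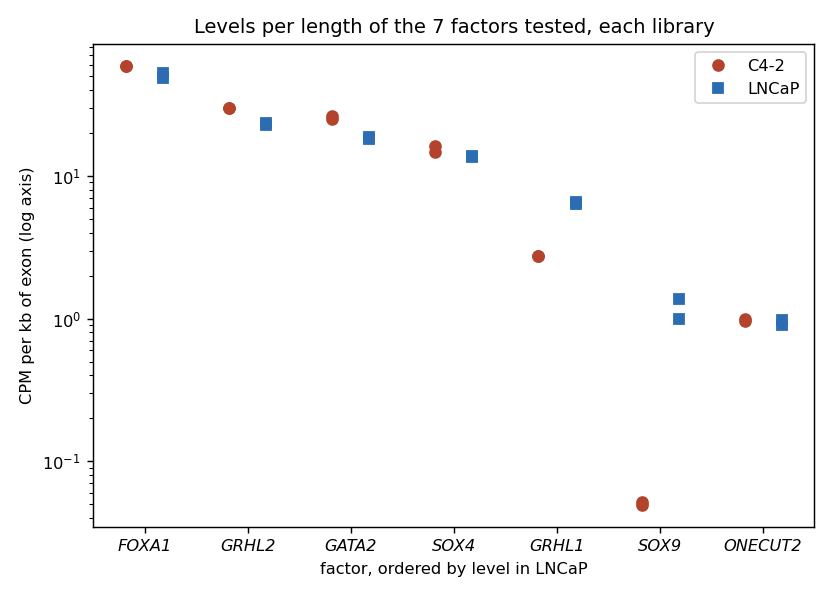
Levels per length of the 7 factors tested, in CPM per kb of exon on a log axis (y), for each library labelled C4-2 (circles) and LNCaP (squares), in the order of the LNCaP levels (x). FOXA1 is highest at 58.8 and 59.0 in C4-2-labelled libraries against 52.9 and 48.8 in LNCaP-labelled ones, and SOX9 shows the widest gap, at 0.0522 and 0.0496 in C4-2-labelled libraries against 1.38 and 0.995 in LNCaP-labelled ones.

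Tags on the strand opposite to these genes were few. They made up 0.208% to 0.556% of all FOXA1 tags. For SOX4 they were 1.23% and 1.27% in C4-2-labelled libraries and 1.92% and 2.11% in LNCaP-labelled ones. For GRHL2 they were 0.913% and 1.03% in C4-2-labelled libraries against 1.34% in both LNCaP-labelled ones. Over all named genes the share was 1.31% and 1.29% in C4-2-labelled libraries and 1.99% and 1.83% in LNCaP-labelled ones. SOX4 was thus near the share over all genes, which also differed between the lines. SOX9 overlaps the antisense gene SOX9-AS1 by gene span in the GENCODE annotation. It had 1 and 0 opposite tags in C4-2-labelled libraries and 0 and 1 in LNCaP-labelled ones. Whether exons of both genes overlap was not examined, so these tags do not tell whether SOX9-AS1 was transcribed.

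The neighbours of these genes in the hg19 coordinates did not share 1 direction. Beside FOXA1, MIPOL1 lies 38.3 kb away and had 70.5 and 74.4 CPM in C4-2-labelled libraries against 53.0 and 52.3 CPM in LNCaP-labelled ones, which puts its log2 fold change at 0.46 ± 0.048 (SE). On the other side of FOXA1 SSTR1, 613 kb away, was lower (-2.28 ± 0.51, SE, or -1.29 and not called with library totals), with at most 16 tags in a library. LOC90246, an RNA on the other strand 19.3 kb upstream of the start of NM_001145661 of GATA2, had 6.96 and 6.70 CPM in C4-2-labelled libraries against 1.75 and 1.70 CPM in LNCaP-labelled ones (1.99 ± 0.11; edgeR adjusted p = 9.02e-07). Both neighbours of the lower GRHL1 were higher, TAF1B at 0.48 and KLF11 at 0.72. Around SOX9 lies a wide gap: LINC00673, 277 kb away, was lower (-1.44 ± 0.19, or -0.44 and not called with library totals), and KCNJ2, 1941 kb away on the other side, was higher (1.43 ± 0.33). SOX4 has CDKAL1 on one side, which was lower at -0.41 and higher at 0.59 with library totals, and the RNA CASC15 on the other, with 2 and 2 tags in C4-2-labelled libraries and 6 and 15 in LNCaP-labelled ones. Near ONECUT2, the heme synthesis gene FECH stood at 0.21 and ST8SIA3 had at most 3 tags in a library. FOXA2's neighbour LINC00261 had 3 and 1 tags in C4-2-labelled libraries and 3 and 0 in LNCaP-labelled ones, and GATA3-AS1, beside GATA3, had 0 tags in all 4 libraries. GRHL2 is flanked by the pseudogene NACA4P, lower at -0.45 but higher at 0.55 with library totals, and by NCALD, which did not pass the test (-0.33 ± 0.32).

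Within each family 1 gene held most of the summed level per length, and the make-up of the GRHL and SOX families differed between the lines. Among 3 GRHL genes, GRHL2 held 90.8% of the summed level in both C4-2-labelled libraries and 77.2% and 78.4% in LNCaP-labelled ones, and GRHL1 held 8.36% and 8.22% in C4-2-labelled libraries and 22.1% and 21.1% in LNCaP-labelled ones. Among 6 GATA genes, GATA1 to GATA6, GATA2 held 96.4% and 96.8% in C4-2-labelled libraries and 94.9% and 96.5% in LNCaP-labelled ones, with GATA6 next. This sum leaves out the atypical family member TRPS1. TRPS1 averaged 26.7 CPM in C4-2-labelled libraries and 4.42 CPM in LNCaP-labelled ones, against 3.27 and 2.91 CPM for GATA6. Of 19 SOX genes, SOX4 held 54.1% and 53.2% in C4-2-labelled libraries and 63.6% and 64.2% in LNCaP-labelled ones. SOX9 held 0.175% and 0.178% in C4-2-labelled libraries and 6.32% and 4.71% in LNCaP-labelled ones. SOX8, a SoxE paralog of SOX9 in neural crest and testis, held 16.6% and 17.1% in C4-2-labelled libraries and 4.42% and 3.92% in LNCaP-labelled ones. These shares do not depend on the scaling of the libraries.

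**Figure D4:**
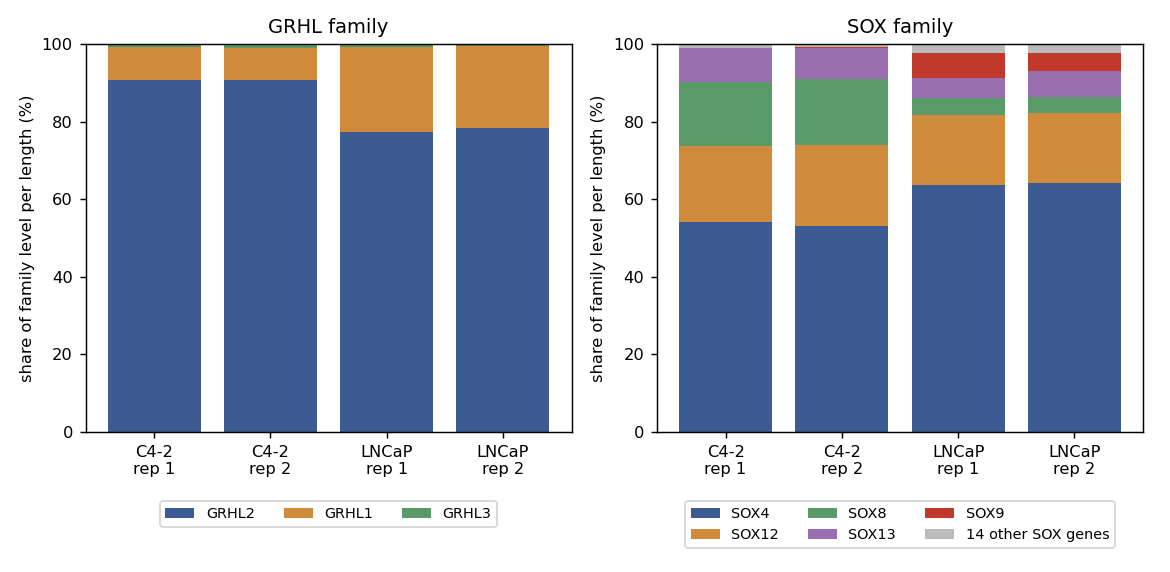
Share of the summed level per length (y axis, %, from 0) that each gene of the GRHL family (left) and of the SOX family (right) held in each library (x axis, labelled C4-2 left of LNCaP). GRHL1 takes 8.36% and 8.22% in C4-2-labelled libraries against 22.1% and 21.1% in LNCaP-labelled ones, and SOX9 0.175% and 0.178% in C4-2-labelled libraries against 6.32% and 4.71% in LNCaP-labelled ones.

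Of 31 further paralogs of these families, 17 had enough tags, of which 8 were higher, 4 lower and 5 did not pass (median log2 fold change 0.19; with library totals 11 were higher and 1 lower). Here and in the lists that follow, the background is 40.2% of tested genes higher and 39.7% lower, and with library totals 73.1% higher and 10.5% lower. TRPS1, an atypical GATA factor that represses transcription, had 26.2 and 27.2 CPM in C4-2-labelled libraries against 4.71 and 4.13 CPM in LNCaP-labelled ones (2.60 ± 0.081, SE). SOX8 had 15.1 and 14.5 CPM in C4-2-labelled libraries against 2.95 and 2.53 CPM in LNCaP-labelled ones, and was 5.41-fold higher. Thus the SoxE genes SOX8 and SOX9 stood at 2.44 and -4.53, on both scalings in opposite directions. Their per-length ratio was 94.6 and 95.8 in C4-2-labelled libraries and 0.698 and 0.834 in LNCaP-labelled ones. SOX12, a SoxC relative of SOX4, was higher at 0.58 ± 0.055. CUX2, a cut homeodomain gene related to the onecut class, had 269 and 192 tags in C4-2-labelled libraries and 0 and 6 tags in LNCaP-labelled ones. It was called as higher, but its fitted log2 fold change of 5.14 rests on those 6 tags: it was 4.27 without LNCaP replicate 1 and 10.54 without LNCaP replicate 2, where the remaining LNCaP-labelled library is at 0 and the value depends on the prior count. The 4 lower paralogs, named after their values were seen, were SOX7 (-1.75), SOX11 (-1.49), TFCP2L1 (-1.36) and CUX1 (-0.18). With library totals SOX7 stood at -0.77 and TFCP2L1 at -0.37, neither called, SOX11 at -0.49 and CUX1 at 0.82. SOX7 had only 27 and 8 tags in C4-2-labelled libraries and 21 and 34 in LNCaP-labelled ones. SOX11, the third SoxC gene, had 0.734 and 0.848 CPM in C4-2-labelled libraries and 2.20 and 2.23 CPM in LNCaP-labelled ones. SOX2, a factor of stem and neuroendocrine cells that was also picked out afterwards, had no sense tag in any library.

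Other factors of the prostate lineage and of prostate cancer were divided. Of 27, 13 were higher, 11 lower and 3 did not pass (median 0.21; with library totals 21 were higher and 1 lower). CEBPA, a leucine zipper factor of differentiation, and the growth regulator MYC were higher at 1.04 and 0.89. Both thus had larger log2 fold changes than FOXA1, GATA2, GRHL2 or SOX4, a difference that was not tested. Among the 11 lower genes, picked out after their values were seen, RUNX1, a runt factor of blood and epithelia, stood at -2.53 ± 0.27 and at -1.54 with library totals. CEBPB and the Krüppel-like factor gene KLF4 were both lower at -0.95, but stood at 0.051 and 0.053 and were not called with library totals.

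Cofactors that bind these families went both ways, with 6 of 14 tested higher, 7 lower and 1 not passing (median -0.26; with library totals 10 were higher, 2 lower and the median was 0.75). TLE1, a Groucho corepressor recruited by FOXA factors, averaged 14.2 ± 0.47 CPM in C4-2-labelled libraries and 37.1 ± 0.14 CPM in LNCaP-labelled ones (SD, n = 2 each), at a log2 fold change of -1.38. Its relative TLE2 was 2.73-fold higher, with 13.3 and 11.9 CPM in C4-2-labelled libraries against 4.58 and 4.62 CPM in LNCaP-labelled ones. KMT2C, an enhancer histone methyltransferase with partial copies elsewhere in the genome that make its count uncertain, was lower at -1.81. The LIM adaptor LMO4 was lower at -1.01, but stood at -0.0085 and was not called with library totals.

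Epithelial genes tied to grainyhead factors were higher for 12 of 18 and lower for 4, with 2 not passing (median 0.51), where 40.2% of all tested genes were higher and 39.7% lower. With library totals 17 of the 18 were higher, but so were 73.1% of all tested genes. The cadherin gene CDH1, a direct target of GRHL2 in mouse epithelia, had 581 and 573 CPM in C4-2-labelled libraries against 316 and 297 CPM in LNCaP-labelled ones (0.91 ± 0.042, SE). The adhesion gene EPCAM, the protease inhibitor gene SPINT2 and the tight junction gene MARVELD3 were higher at 0.94, 1.06 and 1.42. The 4 lower genes, named after their values were seen, were the splicing factor gene ESRP1 (-0.83 ± 0.054), OVOL1 (-0.61), LLGL2 (-0.30) and the claudin gene CLDN4 (-0.26). ESRP1 had 45.3 and 46.3 CPM in C4-2-labelled libraries and 85.1 and 78.1 CPM in LNCaP-labelled ones. With library totals ESRP1 stood at 0.18 and was not called, and OVOL1, LLGL2 and CLDN4 turned to 0.39, 0.70 and 0.74. GRHL2 was higher at 0.37 in the same libraries and GRHL1 lower at -1.23. Of 9 genes of the epithelial-mesenchymal transition only 4 had enough tags, of which VIM was higher (2.79 ± 0.071), FN1 lower (-2.95 ± 0.053) and SNAI1 and SNAI2 did not pass (0.37 and 0.16). With library totals 3 were higher and 1 lower. ZEB1, ZEB2, TWIST1, TWIST2 and CDH2, the members without enough tags, stayed at or below 0.131 CPM in every library.

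Neuroendocrine regulators and markers, a state in which FOXA2 and ONECUT2 are known, were higher for 5 of 11 tested, lower for 3 and not called for 3 (median 0.29; with library totals 8 were higher and 2 lower). PEG10, a retrotransposon-derived gene of neuroendocrine prostate cancer, had 27.0 and 27.8 CPM in C4-2-labelled libraries against 4.94 and 5.54 CPM in LNCaP-labelled ones (2.38 ± 0.076, SE). The enolase gene ENO2 was higher at 1.84, and ASCL2, a bHLH factor of stem cells, was lower at -4.87, with 0.218 and 0.237 CPM in C4-2-labelled libraries against 6.44 and 6.85 CPM in LNCaP-labelled ones. EZH2, the Polycomb methyltransferase gene, was lower at -0.65 and turned to 0.35 with library totals. Other genes of this list, named after their values were seen, went several ways. POU3F2, a POU factor of neuroendocrine prostate cancer, was higher (0.95 ± 0.25, SE; edgeR adjusted p = 0.00720), with 1.01 and 1.11 CPM in C4-2-labelled libraries and 0.666 and 0.438 CPM in LNCaP-labelled ones. REST, a repressor of neuronal genes that is lost in that state, was also among the 5 higher genes, at 0.60. The synaptic vesicle gene SYP and the adhesion gene NCAM1 did not pass (-0.25 ± 0.20 and 0.95 ± 0.41), and CHGA had 9 and 0 tags in C4-2-labelled libraries and 0 and 0 in LNCaP-labelled ones. NEUROD1 and INSM1 stayed at or below 0.0166 CPM in every library, as FOXA2 did at or below 0.0509 CPM.

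**Figure D5:**
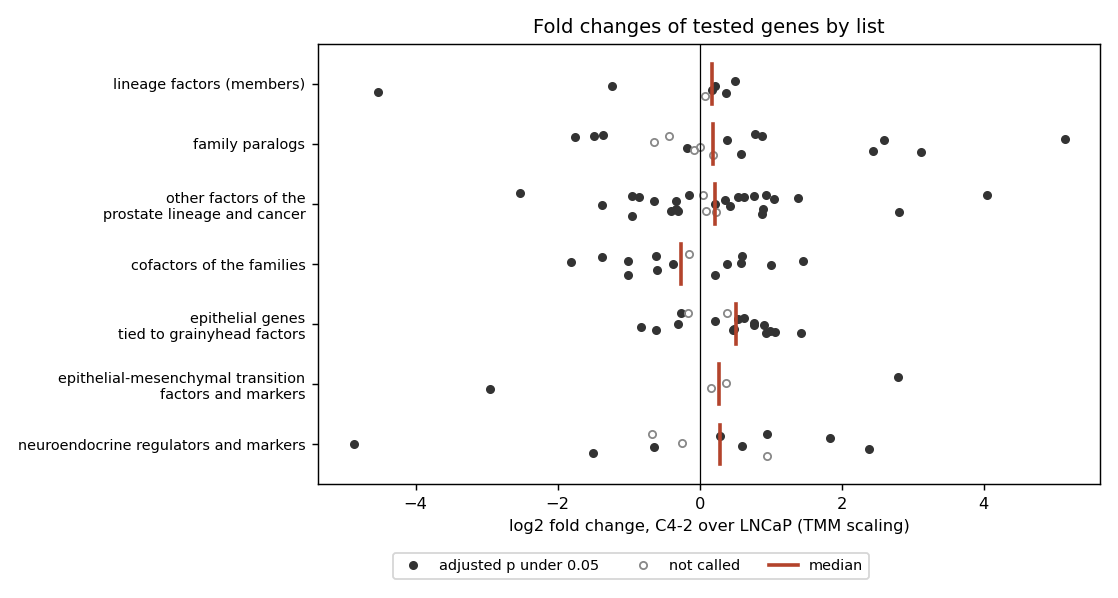
Log2 fold change of C4-2-labelled libraries over LNCaP-labelled ones (x axis) for the tested genes of each list (rows; vertical scatter has no meaning), filled where the adjusted p was under 0.05, with the median as a red bar. The median of the lineage factors is 0.17, that of the epithelial genes 0.51 and that of the cofactors -0.26.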

How the data were processed

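Total RNA libraries of 2 cell lines, 2 per line, were analysed. The submitters' processing notes name TopHat2 2.0.6, Bowtie and the build hg19 (GRCh37). For each of 41351 RefSeq transcript entries the deposited tables hold tag counts and RPKM on either strand, per the file headers; the counting tool is not given in the sources used here. Starts matched the GENCODE annotation once 1 was added (20132 entries, against 2312 as given), so coordinates are printed counted from 1. The kit is not stated to keep the strand, but 1.29% to 1.99% of tags were antisense, and sense counts were analysed. Library totals behind RPKM, recovered from single-exon transcripts, were 241071254 and 171507157 tags for C4-2 and 189870505 and 197627627 for LNCaP.

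Accessions were named through RefSeq (GRCh38.p14; no coordinates taken), with a match for 38974 of 40304; unnamed entries held 2.06% to 2.15% of sense tags and were left out. The transcript with the most tags was kept for each of 22985 symbols. Counts were tested with edgeR 4.0.16 in R 4.3.3 (quasi-likelihood, filterByExpr as low-count filter, TMM, cell line as the only term) with Benjamini-Hochberg adjustment over 15975 genes, and each SE is the fold change divided by the root of its F statistic. The script was tested on simulated data. Counts of replicates differed beyond sampling noise (chi-square per degree of freedom 12.2 for C4-2 and 24.4 for LNCaP). P-values measure the spread between these libraries, which may be technical. Intervals and limits for low counts (95%, exact; a floor of 3 tags over a line) cover counting error only.

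The members and the lists of related genes and markers were chosen with earlier results of these data known. Named were all members, their nearest neighbours, up to 4 called genes per list by smallest adjusted p, and for each tested member the gene with the nearest pattern; some genes that this rule names are not reported here. Further settings were DESeq2 1.42.0 as a test and as scaling, library totals, 2 other filters, summed transcripts, both strands, no non-coding transcripts, a replicate block, and each library left out.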

Additional observations from a re-analysis of the deposited data

How the results depend on the processing

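Of 91 values of the 7 tested members over 13 other settings, 84 kept their direction and their side of the threshold. GATA2 and GRHL2 stayed higher and SOX9 lower, with calls under all 13. Scaling to library totals moved most: 11626 genes were then higher and 1664 lower, 1 member was lower, GRHL1 stood at -0.22 (not called), ONECUT2 at 1.08 (called) and EZH2 at 0.35, which follows from the shift of the median gene to 1.01. With the stricter filter of 100 tags 2 members were higher, FOXA1 stood at 0.11 and SOX4 at 0.066, neither called, and ONECUT2 at -0.035; the cause was not tested. Without non-coding transcripts SOX4 stood at 0.11 and was not called. With single libraries left out, SOX4 ranged from 0.12 to 0.24, its call ending without C4-2 replicate 1, and SOX9 from -4.75 to -4.27. Replicate numbers did not pair the libraries (correlation of deviations -0.032), and with the replicate block FOXA1 stood at 0.21, 6259 genes were higher and no member's call changed. In the lists, 145 of 156 counts stayed within 1.5 times. At these depths FOXA2 and GATA3 are below what can be compared.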

Other observations

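For each tested member, the gene with the nearest pattern was sought among 11226 genes whose average log2 CPM reached 2 (11227 for SOX9, itself below that level), by the Euclidean distance of mean-centred log2(CPM + 0.01) over the 4 libraries. With 4 libraries in 2 groups this mostly matches the fold change, and no shared function is implied. It gave TBC1D8B for FOXA1 (distance 0.0057), DIDO1 for GATA2 (0.0054), HSPA5 for GRHL1 (0.014), TMEM86A for GRHL2 (0.0054), CASZ1 for SOX4 (0.0071) and LRRC58 for ONECUT2 (0.0080). SOX9 was nearest to FSTL1 at a distance of 0.27, with FSTL1 at a log2 fold change of -4.47 and SOX9 at -4.53.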
